A study of Ovis aries with 8 samples.

Results

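ACE, AGTR1 and AGTR2 encode the converting enzyme and the receptors of the renin-angiotensin system. They are 3 of the 853 genes that could be named on this sheep array and were measured by 7 of its 15008 non-control probes. A probe was taken where its gene name was one of these symbols, or where its description contained the word angiotensin or the words renin receptor. This gave 1 probe for AGTR1, 2 for AGTR2 and 4 for ACE, of which 2 are described in the files as the testis isoform and 2 as the somatic isoform. Each of the 7 probes was printed once on the array. The AGTR2 probes carry the older gene name AT2 in the files and were identified by their description as the subtype 2 receptor of angiotensin II.

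The samples were the lungs of 8 sheep fetuses near 130 days of gestation, where term is 147 days. In each of 4 sets of twins, 1 fetus received 0.2 mg of the adrenal hormone aldosterone over 48 h, and the other was the control and received vehicle. Surgery preceded the infusions by 5 days in both groups, so the controls shared the surgery and the infusion. No genotype, breed or sex is given in the labels, and each of the 8 lungs had its own 1-colour array.

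In the renin-angiotensin system, angiotensin-converting enzyme (ACE) removes a dipeptide from angiotensin I to give the active peptide angiotensin II. Angiotensin II acts through the type 1 receptor (AGTR1), which drives vasoconstriction and, in the adrenal gland, aldosterone release, and through the type 2 receptor (AGTR2), which is typical of fetal tissues. ACE is abundant on the endothelium of lung capillaries, and besides making angiotensin II it breaks down bradykinin. The testis form of ACE is made from the same gene and has only the C-terminal of the pair of catalytic domains of the somatic form.

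The sequences of the ACE and AGTR2 probes are shown because neighbouring probes of one target are compared with each other below. They are given from 5′ to 3′ as deposited, and the capitals mark the stretch of 20 bases common to the 4 ACE probes.
AGTR2 probe A_70_P017106: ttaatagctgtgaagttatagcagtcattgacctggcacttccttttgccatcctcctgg
AGTR2 probe A_70_P017107: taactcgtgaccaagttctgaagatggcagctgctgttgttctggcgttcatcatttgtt
ACE testis isoform probe A_70_P031636: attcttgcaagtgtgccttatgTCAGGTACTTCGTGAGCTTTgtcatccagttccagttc
ACE testis isoform probe A_70_P031637: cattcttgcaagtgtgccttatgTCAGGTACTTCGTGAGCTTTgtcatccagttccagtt
ACE somatic isoform probe A_70_P031641: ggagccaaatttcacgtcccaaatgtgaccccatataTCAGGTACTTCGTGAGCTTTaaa
ACE somatic isoform probe A_70_P031642: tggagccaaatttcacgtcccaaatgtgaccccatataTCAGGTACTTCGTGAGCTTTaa
The 2 testis isoform probes overlap in 59 of their 60 bases, offset by a single base, and the same holds for the 2 somatic isoform probes. The common stretch begins at base 23 or 24 of the testis probes and at base 38 or 39 of the somatic probes. The 2 AGTR2 probes share no run longer than 5 bases, so they sample different places in that transcript. The G and C content was 45% in the testis isoform and AGTR2 probes and 43.3% in the somatic isoform probes. No probe outside the 7 shared 15 or more bases with an ACE probe. Each receptor probe shared about 16 bases with a probe outside the 7, on the same strand for AGTR1 and on the opposite strand for AGTR2. The effect of this on the receptor values was not tested. Whether the testis isoform probes also bind the somatic transcript was not tested. The somatic form also has the catalytic domain of the testis form, so values of these probes cannot be assigned to the testis form alone. The files list all 7 probes as unmapped, so no genome position is given.

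Values are the processed intensity of a spot, in the scanner's linear units after background subtraction, or its log2 level relative to the 75th percentile of that array's intensities. A spot is called well above background where the scanner software flagged it so. Between 76.5% and 85.4% of spots were well above background on an array, and all 8 arrays lay on 1 slide and had 1 scan time. The groups were compared with limma over 12168 probes, those flagged as well above background on 4 arrays or more. The tissue label held up on the 5 lung epithelium markers of the array (SFTPA1, SFTPB, SFTPC, SFTPD and AQP5), which were well above background on every array. With 4 arrays per group, the precision of every value is limited by that number.

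None of the 5 renin-angiotensin probes that could be tested passed an adjusted p of 0.05 in limma, against 0 of the 12168 probes of the array (0%). At an unadjusted p under 0.05 in limma the count was 1 of the 5, the ACE testis isoform probe A_70_P031637, where the share over the array was 1.87% in either direction and 0.6% for lower values. With the replicate number as a block it was 0 of the 5, where the share over the array was 4.43%. Both ACE probes tested passed the filter through the 4 control arrays, where they were high, and 1 aldosterone array, so their counts and p-values are those of probes that the filter chose by the higher group. The mean was lower after aldosterone for 3 of the 5 probes, and over the array it was lower for 48.5%. No renin-angiotensin probe separated the groups without overlap, which 1.31% of the array's probes did. In whole lung, fewer cells of a type and less RNA per cell cannot be told apart in any of these values.

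AGTR1, the receptor through which angiotensin II constricts vessels, was measured well above background on all 8 arrays, at intensities of 1916 to 4016. Its log2 levels relative to the 75th percentile were 1.18, 0.95, 0.81 and 0.70 in aldosterone replicates 1 to 4. They were 1.15, 0.82, 1.50 and 0.61 in control replicates 1 to 4. The groups overlapped over most of their range, and the highest lung was control replicate 3. The means were 0.91 ± 0.21 (SD, n = 4) after aldosterone and 1.02 ± 0.39 (SD, n = 4) in controls, so the spread among controls was wider than the gap between the groups. The log2 difference was -0.11 ± 0.21 (limma SE), with a 95% interval of -0.59 to 0.37 and an adjusted p of 1.00 in limma. An exact two-sided permutation test over the 8 lungs gave p = 0.714, where 0.0286 is the smallest p that 4 against 4 allows. Within the same-numbered pairs the treated lung differed from its control by 0.03, 0.13, -0.69 and 0.09, so 3 pairs were higher and 1 was lower. The sign of the mean came from that one pair: without control replicate 3 the difference was 0.05.

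AGTR2, the receptor typical of fetal tissue, was also well above background on all 8 arrays on both of its probes. Intensities ran from 172 to 243 on A_70_P017106 and from 180 to 281 on A_70_P017107. On A_70_P017106 the log2 levels were -2.95, -3.01, -2.82 and -2.47 in aldosterone replicates 1 to 4. In control replicates 1 to 4 they were -2.77, -3.03, -2.83 and -2.81. Aldosterone replicate 4 stood highest and the other 7 lungs lay between -3.03 and -2.77, in no order by treatment. The difference was 0.05 ± 0.15 (limma SE), with a 95% interval of -0.31 to 0.40.

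The other AGTR2 probe, A_70_P017107, gave log2 levels of -2.83, -2.73, -2.83 and -2.35 in aldosterone replicates 1 to 4. The controls 1 to 4 stood at -2.56, -2.82, -2.84 and -2.79. Aldosterone replicate 4 was again the highest lung, and the groups overlapped. The difference was 0.07 ± 0.15 (limma SE), with a 95% interval of -0.28 to 0.42. Exact two-sided permutation tests gave p = 0.771 for A_70_P017106 and p = 0.629 for A_70_P017107, and limma's adjusted p was 1.00 for both.

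The levels of the 2 AGTR2 probes, whose sequences do not overlap, correlated at r = 0.80 over the 8 arrays, which share the slide. That value rests on aldosterone replicate 4, without which r was 0.31 over the other 7 lungs. The gap between the probes varied by an SD of 0.11. Same-numbered pairs differed by -0.18, 0.02, 0.01 and 0.34 on A_70_P017106 and by -0.26, 0.09, 0.01 and 0.44 on A_70_P017107. Both probes thus placed the lower treated lung in pair 1 and the higher one in pair 4. Without aldosterone replicate 4 the difference was -0.07 on A_70_P017106 and -0.04 on A_70_P017107, so the sign of the mean turned on that lung for both. The intervals leave room for a change of AGTR2 of up to 0.42 on the log2 scale in one direction and 0.31 in the other.

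**Figure D1:**
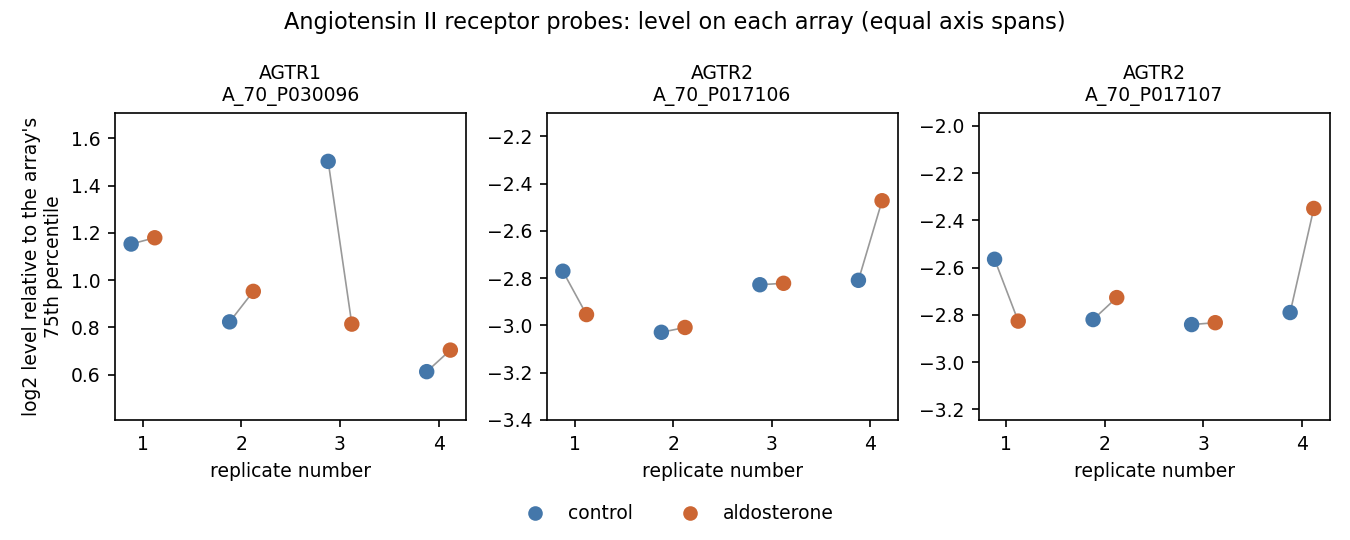
The plots show the log2 level of the AGTR1 probe and the 2 AGTR2 probes relative to the 75th percentile of each array, by replicate number. Points are single lungs (blue control, orange aldosterone), lines join lungs of the same number, and the vertical axes have equal spans; AGTR1 shows control replicate 3 apart at 1.50, and both AGTR2 probes show aldosterone replicate 4 apart at -2.47 and -2.35.

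The ACE probes gave signals close to the local background on this array. The testis isoform probes were well above background on all 4 control arrays and on 1 of the 4 aldosterone arrays each. On A_70_P031636 the intensities were 17.2, 13.3, 19.3 and 23.2 in aldosterone replicates 1 to 4 and 18.4, 28.8, 35.0 and 22.2 in control replicates 1 to 4. The treated lung called well above background was replicate 3. On A_70_P031637 the intensities were 11.7, 12.7, 13.6 and 30.1 in aldosterone replicates 1 to 4 and 46.9, 37.8, 26.1 and 21.4 in control replicates 1 to 4. Here the treated lung called well above background was replicate 4, which exceeded 2 of the controls. The groups overlapped on both probes.

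The raw signal of the 2 testis isoform probes was 1.23 to 2.10 times the local background, where that of AGTR1 was 23.8 to 52.2 times. The flag is set spot by spot: on A_70_P031636 the 23.2 of aldosterone replicate 4 was not flagged as well above background and the 18.4 of control replicate 1 was. The lowest intensity called well above background differed between arrays, from 8.37 on control replicate 4 to 19.7 on aldosterone replicate 4. Whether this difference in the detection limit had a part in the detection counts of ACE was not tested.

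As log2 levels, A_70_P031637 stood at -6.48 ± 0.81 (SD, n = 4) after aldosterone and -5.50 ± 0.37 (SD, n = 4) in controls. The difference was -0.98 ± 0.38 (limma SE) with a 95% interval of -1.84 to -0.11, and since 3 of the 4 treated lungs were not well above background no fold is given. The unadjusted p in limma was 0.0312 and the adjusted p was 1.00. An exact two-sided permutation test gave p = 0.0857 over the lungs and p = 0.25 over the pairs, where 0.125 is the smallest p that 4 pairs allow. Pairs of the same number differed by -2.03, -1.64, -0.79 and 0.55, so the treated lung was lower in 3 of 4 pairs. With the replicate number as a block the unadjusted p was 0.0570 and the adjusted p was 0.878 in limma.

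The neighbouring probe A_70_P031636 gave a smaller difference, -0.48 ± 0.31 (limma SE), with a 95% interval of -1.18 to 0.23. Its means were -6.29 ± 0.51 (SD, n = 4) after aldosterone and -5.81 ± 0.49 (SD, n = 4) in controls. Limma's unadjusted p was 0.160 and the exact two-sided permutation p was 0.2. Same-numbered pairs differed by -0.14, -1.19, -0.71 and 0.12. Both probes thus gave lower treated lungs in pairs 1 to 3 and a higher one in pair 4, with sizes that differed most in pair 1.

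**Figure D2:**
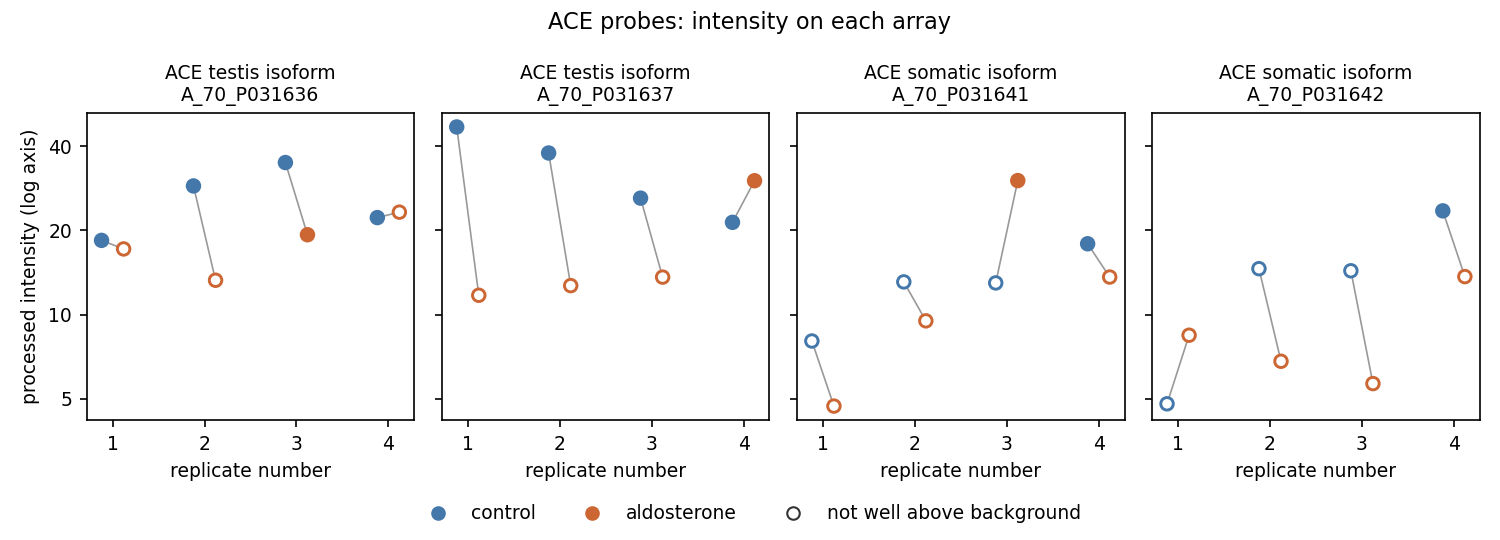
The plots show the processed intensity (log axis) of the 4 ACE probes by replicate number, with lines joining same-numbered lungs (blue control, orange aldosterone). Filled points were well above background and open points were not; the testis isoform probes have 4 filled control points and 1 filled aldosterone point each, and the somatic isoform probes have 1 filled point per group or fewer.

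The 2 testis isoform probes differ in sequence by a shift of 1 base, yet they disagreed within arrays. The level of A_70_P031637 less that of A_70_P031636 ran from -0.55 in aldosterone replicate 1 to 1.35 in control replicate 1. This gap had an SD of 0.63 over the 8 arrays, and averaged 0.32 in controls and -0.19 after aldosterone. The 2 probes correlated at r = 0.59, and at r = 0.87 without control replicate 1. The cause of the disagreement was not tested. The AGTR2 probes, at higher intensity, gave the SD of 0.11 above. In aldosterone replicate 1 and control replicate 1 the gaps were of opposite sign, which is how that pair came to differ by -2.03 on A_70_P031637 and by -0.14 on A_70_P031636. With both probes averaged before the fit, the ACE difference was -0.73 ± 0.30 (limma SE), with an unadjusted p of 0.0378 and an adjusted p of 1.00 in limma. This average was added after seeing the data, from probes that passed the filter through the controls, where they were high.

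The scatter of spots at these intensities was taken from other probes. The array carries 50 probes that are printed at 5 spots each. Where such a probe had a mean intensity of 15 to 50, the range of most of the testis isoform values, its spots differed within an array by a median SD of 0.50 on the log2 scale. Below 15, where 4 of the 16 testis isoform values and most of the somatic isoform values lay, the median SD was 0.33. These medians rest on 12 probes at 15 to 50 and 20 probes below 15, with upper quartiles of 0.87 and 0.71. The probes at 15 to 50 differed widely among themselves. SDs ran from 0.59 to 1.61 on A_70_P039686 and from 0.097 to 0.44 on A_70_P039411. Some of these probes gave more of the values than others, so the median of 0.50 may not hold for ACE. The range below 15 includes probes dimmer than any ACE value, so its median may not hold either. Between 50 and 500, where AGTR2 lay, the median SD was 0.0991, and between 500 and 5000, where AGTR1 lay, it was 0.0610. By these medians, repeat spots at the intensities of the ACE probes scattered more than those at the intensity of either receptor.

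**Figure D3:**
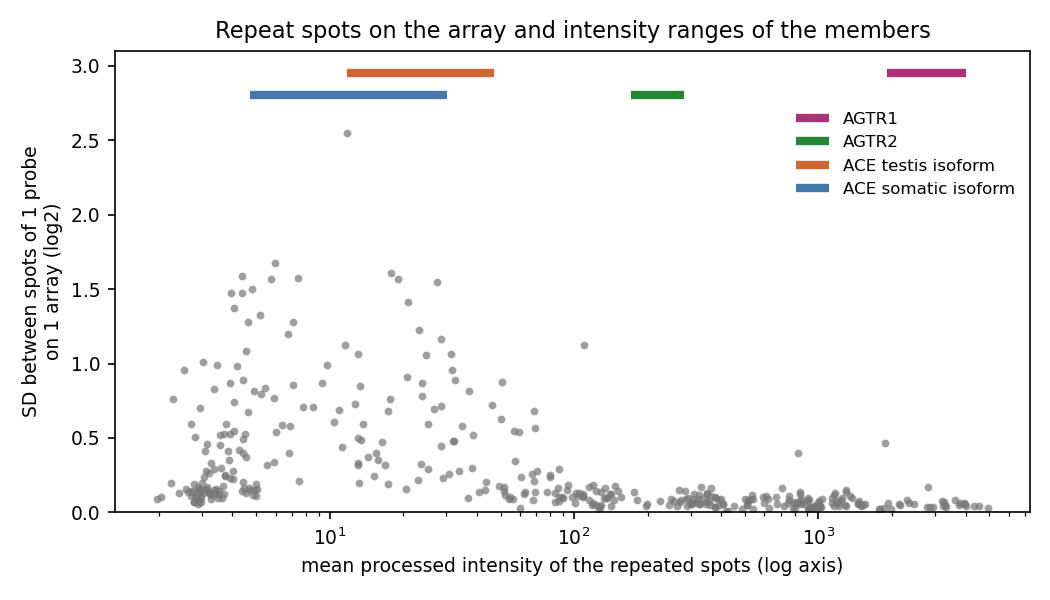
Each point is 1 of the 50 probes printed at 5 spots, on 1 array: the SD of its spots (log2) against their mean processed intensity (log axis). The coloured bars mark the intensity ranges of the members; the ACE ranges lie where the median SD was 0.33 (below 15) and 0.50 (15 to 50), and AGTR1 lies where it was 0.0610.

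By detection, the pattern of ACE was uncommon on the array and ran in the direction that was also the commoner one. Well above background on all 4 control arrays and on at most 1 aldosterone array held for 27 of the 15008 probes (0.18%), among them both testis isoform probes. The reverse held for 2 probes (0.0133%). Among the 155 probes that were well above background on exactly 5 arrays, 26 (16.8%) had 4 controls and 1 treated lung, and 2 (1.29%) had the reverse. An exact two-sided Fisher test on the arrays, 4 of 4 against 1 of 4, gave p = 0.143 for each testis isoform probe. With 5 arrays well above background, 4 against 1 is the most uneven split. The value of 0.143 is therefore the smallest p that this test allows here. It cannot decide whether detection differed between the groups, and no conclusion is drawn from it.

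The ACE differences were unlike in size between the rows of the slide. They were below 0 on every ACE probe in row 1, and on every one but A_70_P031641 in row 2. Replicates 1 and 2 of both groups lay in row 1 of the slide and replicates 3 and 4 in row 2. Slide row therefore cannot be told apart from replicate number. The difference on A_70_P031637 was -1.84 in row 1 and -0.12 in row 2, and on A_70_P031636 it was -0.66 and -0.29. On the somatic isoform probes it was -0.67 and 0.51 for A_70_P031641 and -0.19 and -0.96 for A_70_P031642. AGTR1 gave 0.08 in row 1 and -0.30 in row 2. The AGTR2 differences were -0.08 in row 1 on each probe and 0.17 and 0.22 in row 2. With 2 lungs per group in a row, these values have no useful test of their own. Each row held both groups, and with slide row as a block in limma the differences over all arrays were the same. A_70_P031637 gave -0.98 ± 0.39 (limma SE, unadjusted p = 0.0371) and A_70_P031636 gave -0.48 ± 0.23 (limma SE, unadjusted p = 0.0690). The adjusted p in limma was 0.999 for both. Whether the ACE difference varied with the row was not tested.

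The 2 probes described as the somatic isoform of ACE were not well above background in most lungs and were not tested. On A_70_P031641 the intensities were 4.71, 9.49, 30.1 and 13.6 in aldosterone replicates 1 to 4 and 8.04, 13.1, 13.0 and 17.9 in control replicates 1 to 4. It was well above background in aldosterone replicate 3 and control replicate 4. On A_70_P031642 the intensities were 8.43, 6.81, 5.66 and 13.7 in aldosterone replicates 1 to 4 and 4.80, 14.6, 14.3 and 23.5 in control replicates 1 to 4. Here control replicate 4 alone was well above background.

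The differences of the somatic isoform probes were -0.08 and -0.57 on the log2 scale, with exact two-sided permutation p of 0.971 and 0.4. These probes also overlap in 59 bases, yet their levels within an array differed by -2.41 to 0.84. In aldosterone replicate 3, A_70_P031641 was the brightest and A_70_P031642 the dimmest of the 4 treated lungs. No direction can be read for the somatic form from these values, and no fold is given for it. On these probes a lower somatic ACE in treated lungs was not detectable at this signal, nor was a higher one.

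**Figure D4:**
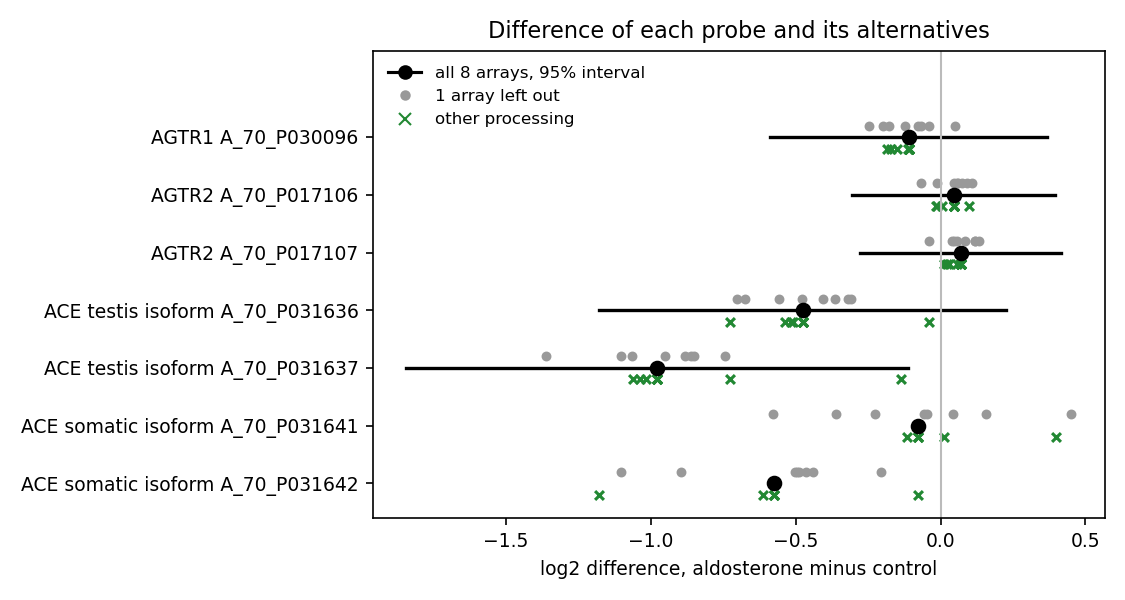
For each of the 7 probes the black point is the log2 difference, aldosterone minus control, over 8 arrays, with limma's 95% interval for the 5 probes tested. Grey points leave out 1 array each and green crosses use another processing, among them both ACE testis probes averaged, drawn on both; the receptor values lie around 0, and the ACE testis values are all below 0, ranging from -1.36 to -0.14 for A_70_P031637.

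In the wider renin-angiotensin pathway, the genes reported here are ACE, AGTR1 and AGTR2. Each by its brightest probe, AGTR2 had a higher mean after aldosterone and AGTR1 and ACE had lower means, and 0 of the 3 passed the test. Their median difference was -0.11, where all probes tested had a median of 0.01.

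In the kinin pathway, whose peptide bradykinin is a substrate of ACE, 1 gene of 6 was on the array. KLK1, which encodes tissue kallikrein, the protease that releases kinins, averaged 1.34 ± 0.93 (limma SE) higher on the log2 scale after aldosterone and was higher in 4 of 4 same-numbered pairs. Its adjusted p in limma was 1.00. The flag for well above background was set on 3 of its control spots and 4 of its treated spots, and without control replicate 4 the difference was 0.30.

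Genes of aldosterone synthesis and response were counted because aldosterone release is an output of AGTR1 in the adrenal gland. Of 12 such genes 8 were on the array and 5 were tested. The 5 were NR3C1, NR3C2, HSD11B1, HSD11B2 and CYP17A1. All 5 means were lower after aldosterone, from -0.32 to -0.02 with a median of -0.15, and 0 passed the test. Over the array the mean was lower for 48.5% of the probes tested. NR3C1, the glucocorticoid receptor, gave -0.32 ± 0.29 and NR3C2, the mineralocorticoid receptor to which aldosterone binds, gave -0.19 ± 0.23 (limma SE). Without control replicate 3 these were -0.07 for NR3C1 and -0.01 for NR3C2. HSD11B2, the enzyme that protects this receptor from cortisol, gave -0.15 ± 0.32 (limma SE). Of the steroid synthesis genes, CYP17A1 was well above background on all 4 control and all 4 aldosterone arrays. CYP11A1 and CYP11B1 were so on no array, and STAR on 1 aldosterone array. These untested genes had higher means after aldosterone, and no direction is read from values so near background.

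Of 18 genes that act downstream of the angiotensin receptors or respond to them, 10 were tested, 5 with higher and 5 with lower means, with a median of 0.01, and 0 passed. CYBB, the catalytic subunit of the phagocyte NADPH oxidase, gave 0.47 ± 0.38 and its partner subunit CYBA gave 0.20 ± 0.28 (limma SE). NOS3, the endothelial nitric oxide synthase, gave 0.18 ± 0.27 (limma SE). With 1 lung left out, CYBB ran from 0.16 to 0.70, CYBA from -0.01 to 0.41 and NOS3 from 0.03 to 0.43.

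Markers of the cell types that could carry these genes were set beside them. Of 14 endothelial markers 8 were on the array, with 5 higher and 3 lower means and 0 called. Their summed level, in units of the array's 75th percentile, was 14.5 to 17.9 in controls and 13.1 to 19.2 after aldosterone. All were well above background on every array except FLT1, on 2 arrays per group. The 5 fibroblast markers summed to 130 to 153 in controls and 135 to 187 after aldosterone, and the 5 lung epithelium markers to 456 to 632 and 373 to 603. VIM made up the largest part of the fibroblast sum, SFTPC of the epithelial sum and PECAM1 of the endothelial sum. Male germ cells are the usual source of testis ACE, and of 6 markers of that cell SPA17 and ACR were on the array. They summed to 0.942 to 1.44 in controls and 0.875 to 1.49 after aldosterone, nearly all of it SPA17, while ACR was flagged so in 4 control and 3 treated lungs. SPA17 was well above background in every lung, so this sum is not read as a germ cell signal in this tissue. The ranges of the groups overlapped for each of these lists, and their part in the ACE values was not tested.

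The red cell markers HBB, CA1 and AHSP summed to 9.07 to 40.1 in controls and 6.50 to 30.1 after aldosterone, with 3 of 3 means lower and 0 called. The 2 macrophage and monocyte markers, CD14 and ITGAM, had 1 higher and 1 lower mean. CNN1 was the smooth muscle marker measured, and its difference was -0.10 ± 0.19 (limma SE).

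The genes whose levels followed each member most closely over the 8 lungs were sought among 639 other named genes, and are given as a description. For AGTR1 they were DYNLT3, a dynein light chain (r = 0.93), PHF14, a chromatin protein (r = 0.92), and PRNP, the prion protein (r = 0.84). With the group means removed, these correlations were 0.93, 0.91 and 0.90. For AGTR2, by A_70_P017107, they were FBXO32, a ubiquitin ligase subunit (r = 0.80), BMP7, a bone morphogenetic protein (r = 0.80), and GGCX, the vitamin K-dependent carboxylase (r = 0.80). For ACE, by A_70_P031637, they were the orexin receptor HCRTR2 (r = 0.83), the keratin KRT27 (r = 0.82) and the clock gene PER3 (r = 0.79). HCRTR2 and KRT27 were well above background on 4 arrays each. With the group means removed the order changed: FBXO32 (0.79) ranked 11 and GGCX (0.82) ranked 8 for AGTR2, with BMP7 (0.92) at rank 1, and HCRTR2 (0.81) ranked 7 for ACE, with KRT27 (0.94) at rank 1. All of these points share the 8 arrays of 1 slide.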

How the data were processed

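RNA of 8 fetal lungs (450 ng each) was labelled with Cy3, per the labels' protocols. Each deposited scanner file gives the intensity of every spot in linear units, made by the authors with Agilent Feature Extraction 10.1.1.1 per the file headers, with background subtraction and detrending within an array. The authors' deposited table of 12762 rows holds log2 values. Set against the scanner files, these were the log2 processed intensity less 1 constant per array, with column medians of 0, and 12 to 262 cells per array were empty. For the choice of rows and of empty cells, the sources used here give no rule.

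The intensities were put on the log2 scale and the 75th percentile of each array was subtracted, 74 values with outlier flags were left out (none from the 7 probes), spots of a probe were averaged, and 12168 of 15008 probes passed the filter. Groups were compared with limma 3.58.1 (R 4.3.3) with the group alone in the model, by two-sided tests, and p-values were adjusted by Benjamini and Hochberg's method over the probes that passed. The code was tested on simulated data. Single values had exact permutation tests over lungs. Gene names came from the files and a RefSeq table (assembly ARS-UI_Ramb_v3.0, for names and nothing else), and 1373 probes were named.

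The labels describe twins without saying that the replicate number marks the twin set. With group means removed, same-numbered lungs correlated at 0.446, 0.275, 0.280 and 0.538 over 12150 probes, and different-numbered ones at -0.449 to 0.204. All 4 exceeded 0.1, and lungs of the same number were therefore treated as a pair; the replicate block is the alternative fit. Removing group means lowers the different-numbered values by construction, and same-numbered arrays lie in the same slide row.

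The genes named were every probe found by the rule, up to 5 of each other pathway list by smallest p (3 are given), and the 3 named genes most correlated with each member. A gene stood by its brightest probe. Some genes of the renin-angiotensin list are not reported here. The members, lists and markers were chosen with earlier results of these data known. The alternatives are another background correction and normalization, median centring, the authors' values, other filters, array weights, an intensity trend, slide row, the replicate block and each lung left out. Averaging the 2 ACE testis isoform probes was added after seeing the data.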

Additional observations from a re-analysis of the deposited data

Results flagged for a closer look

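In 28 groups of 4 lungs looked at, 1 had a lung far from the other 3, where the gap to the nearest lung, as a share of the group's whole range, passed Dixon's 95% critical value. Chance flags about 5% of such groups. On the ACE somatic isoform probe A_70_P031642, aldosterone replicate 4 was the highest of the treated lungs and its gap took 0.880 of the range. This lung was not well above background on that probe.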

How the results depend on the processing

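No adjusted p of a renin-angiotensin probe passed 0.05 in limma under any alternative, nor did any probe of the array, where 228 probes (155 higher) had an unadjusted p under 0.05, 182 with normexp and quantile normalization and 203 (88 higher) with the authors' values. Centring arrays on their medians left 198, of which 104 were higher. The replicate block, with the number as the pair, called 0 probes too, with 539 at an unadjusted p under 0.05, and array weights gave 932. With the block, ACE probe A_70_P031636 kept its difference of -0.48 with a smaller SE of 0.23 and A_70_P031637 had an SE of 0.42.

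Of the 5 tested probes, the 3 receptor probes changed sign under some alternatives, with values close to 0. AGTR2 probe A_70_P017106 was -0.015 with normexp, -0.014 with the authors' values, -0.069 without aldosterone replicate 4 and -0.012 without control replicate 2. A_70_P017107 was -0.041 without aldosterone replicate 4 and AGTR1 was 0.049 without control replicate 3. Leaving out 1 lung at a time, AGTR1 ran from -0.25 to 0.05, A_70_P017106 from -0.07 to 0.11 and A_70_P017107 from -0.04 to 0.13.

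The ACE testis isoform probes stayed below 0 in every alternative. With 1 lung left out, A_70_P031636 ran from -0.70 to -0.31 and A_70_P031637 from -1.36 (without aldosterone replicate 4) to -0.74 (without aldosterone replicate 1). The unadjusted p of A_70_P031637 was above 0.05 without any one of aldosterone replicates 1 to 3 or control replicates 1 and 2, where it lay between 0.0621 and 0.0856. It was 0.00053 without aldosterone replicate 4 and 0.0086 with array weights. With normexp (offset 50) and quantile normalization the differences were -0.04 for A_70_P031636 and -0.14 for A_70_P031637. Their unadjusted p in limma was 0.671 and 0.150, and which of these steps moved the differences was not tested. The untested somatic probe A_70_P031641 ran from -0.58 to 0.45 and was 0.40 with the authors' values. A_70_P031642 ran from -1.10 to -0.20 and was -1.18 with the authors' values.

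By the milder flag of a positive and significant signal, each of the ACE probes was present on 8 arrays, in place of 5, 5, 2 and 1. With 1 lung left out, HSD11B2 ran from -0.47 to 0.018 (without aldosterone replicate 2; 0.00091 without control replicate 2) and CYBA from -0.0080 (without aldosterone replicate 4) to 0.41. The cause of these changes of sign was not tested.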
